A study of Mus musculus with 9 samples.

Results

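The genes described are 35 genes of protein folding in the endoplasmic reticulum (ER) and of the unfolded protein response, chosen by name: the calreticulins and calnexin, the ER heat shock chaperones and their partners, the protein disulfide isomerases, the machinery of ER-associated degradation, and the sensors, transcription factors and effectors of the stress response. All 35 were measured on probe sets that carry the symbol of 1 gene, among 19938 genes measured in that way. The tumours were 5 hepatocellular carcinomas (HCC) of bitransgenic AFP-Cre/Rosa26-lsl-NICD mice. In these mice the alpha-fetoprotein promoter, which is active in immature liver cells, drives Cre recombinase, and Cre removes a stop cassette in front of the intracellular domain of Notch1 (NICD), a form of the receptor that is active without ligand. The comparison samples were 4 healthy livers of mice that carried Rosa26-lsl-NICD without Cre, so that both groups hold the allele and only the tumours can express it. All mice were of a hybrid 129 x C57BL/6 background and 6 to 12 months old. Each sample was 1 Affymetrix Mouse Gene 1.0 ST array of total RNA, and array medians lay between 91.5 and 101 intensity units. The labels do not say whether the tumours came from separate mice, so p-values measure the spread between these samples.

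The ER folds and glycosylates proteins bound for secretion, and hepatocytes, which secrete most plasma proteins, hold large amounts of it. When unfolded proteins build up, 3 membrane sensors respond: IRE1 (Ern1) splices the mRNA of Xbp1, ATF6 is cut into an active transcription factor, and PERK (Eif2ak3) slows translation and favours the synthesis of ATF4. XBP1 and ATF6 raise chaperones and the genes of ER-associated degradation, which returns misfolded proteins to the cytosol for destruction, while ATF4 raises amino acid enzymes and, with CHOP (Ddit3), genes of cell death. Splicing of Xbp1, cleavage of ATF6 and translation of ATF4 are not seen in the values used here, which are summed RNA levels per probe set.

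Of the 35 genes, 1 rose in HCC and none fell at an adjusted p below 0.05 in limma, the gene being Calr4, a paralog of calreticulin. Over all 19938 genes, 0.858% were higher and 0.16% lower by the same test. At an unadjusted p below 0.05, 2 members were higher (Calr4 and Eif2ak3) and 7 lower (Hyou1, Dnajc3, P4hb, Herpud1, Syvn1, Edem1 and Derl3), against 10.5% and 9.85% of all genes. No overlap of the groups was seen for 7 members: all tumours exceeded all control livers for 3 (Calr4, Eif2ak3 and Ddit3) and were lower than all of them for 4 (Dnajc3, P4hb, Herpud1 and Edem1), against 5.63% and 3.86% of all genes. A negative log2 change was seen for 25 members (71.4%), against 57.5% of all genes. The median log2 change was -0.16 over the members and -0.03 over all genes. Changes are HCC minus control liver on the log2 scale throughout, levels are log2 intensities, and 1 log2 unit is a factor of 2. In bulk tissue, fewer cells of a type and less RNA per cell cannot be told apart.

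**Figure D1:**
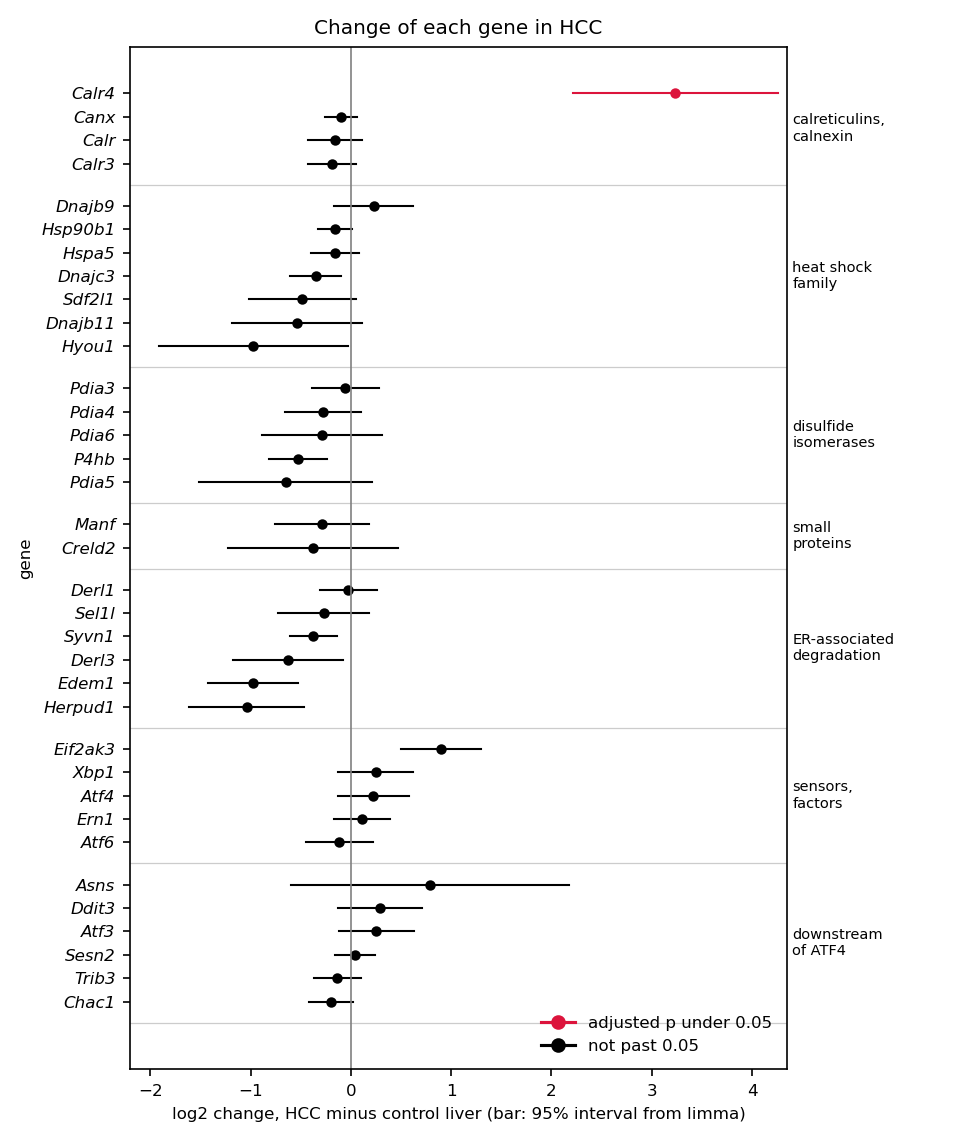
Log2 change of each of the 35 genes, HCC minus control liver (x axis), with its 95% interval from limma, grouped by role and sorted within each role. Calr4, in red at 3.24, is the only gene past an adjusted p of 0.05, and all 6 genes of ER-associated degradation and all 5 disulfide isomerases lie left of 0.

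Calreticulin (Calr) and calnexin (Canx) are lectin chaperones, one soluble and the other in the membrane, that hold newly made glycoproteins until they are folded. Calr3 is known in the mouse from the testis, and Calr4 is a further paralog that has been little studied. Calr4, read by probe set 10506929, measured 8.04, 8.52, 6.57, 9.19 and 7.88 on HCC arrays 1 to 5, against 4.88, 5.15, 4.28 and 4.91 on control arrays 1 to 4. Every tumour was above every control liver, and HCC array 3 was the lowest of the tumours. The mean was 8.04 ± 0.97 in HCC and 4.80 ± 0.37 in control liver (SD, n = 5 and 4), a 9.42-fold higher measured intensity (log2 change 3.24, SE 0.45, 95% interval 2.21 to 4.26, adjusted p = 0.0244). The control mean lay at percentile 9.3 of all genes in control liver, and the HCC mean at percentile 72.1 of all genes in HCC. No detection calls were used, so the control values were not shown to lie above background, and the fold is a ratio of measured intensities and no exact fold of RNA. Leaving out control array 1, 2, 3 or 4 ended the call (adjusted p = 0.0982, 0.0767, 0.105 and 0.0674), with changes of 3.26, 3.35, 3.06 and 3.27.

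The other lectin chaperones showed no difference past the threshold. Calr measured 11.43, 11.74, 11.69, 11.38 and 11.59 in HCC, against 11.42, 11.80, 11.92 and 11.73 in control liver (change -0.16, 95% interval -0.42 to 0.11, adjusted p = 0.486). Calr3 measured 6.54, 6.41, 6.75, 6.34 and 6.58 in HCC, against 6.50, 6.75, 6.88 and 6.73 in control liver (change -0.19, 95% interval -0.43 to 0.05, adjusted p = 0.342). Canx measured 12.59, 12.35, 12.50, 12.39 and 12.43 in HCC, against 12.60, 12.60, 12.52 and 12.48 in control liver (change -0.09, 95% interval -0.25 to 0.07, adjusted p = 0.474). The groups overlapped for all 3. On measured intensities, the change of Calr4 exceeded that of Calr by 3.39 log2 units and that of Calr3 by 3.43 (two-sided exact permutation over 126 splits of the arrays, p = 0.0159 and adjusted p = 0.0238 over 3 pairs for both). The within-array difference to either paralog was higher on 5 of 5 HCC arrays than on any control array. These differences rest on the same low control values of Calr4 and restate its rise beside paralogs without one, so they are no independent result. The changes of Calr3 and Calr differed by -0.03 (p = 0.833 in the same exact permutation test).

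**Figure D2:**
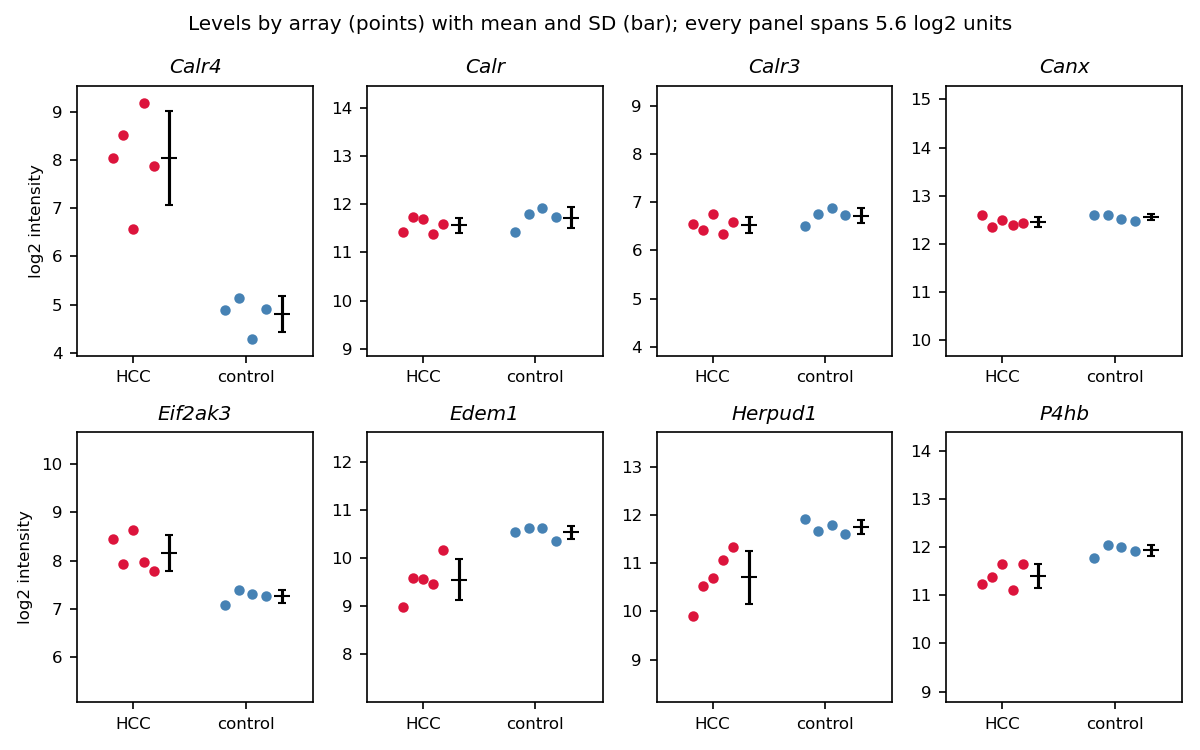
Log2 intensity (y axis) of 8 genes on the 5 HCC arrays (red, left) and the 4 control arrays (blue, right), with mean and SD beside the points and the same span in every panel. The groups are apart for Calr4, Eif2ak3, Edem1, Herpud1 and P4hb and overlap for Calr, Calr3 and Canx.

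Promoters are shown for the Calr4 and Calr pair and for Hspa5, since the paralogs changed unequally and all 3 windows hold the same ER stress element. The sequences are RefSeq windows of the GRCm38.p6 build, from 250 bases before to 50 bases after the start site, on the strand of the gene. The ER stress element, through which ATF6 acts together with NF-Y, was searched as CCAAT and CCACG with 9 bases between them, on both strands, and is in capitals. The Calr4 window is chr4:109218163-109218462 on the + strand, the first of 4 start sites listed for this gene. The Calr window is chr8:84846882-84847181 on the - strand, and the Hspa5 window is chr2:34771840-34772139 on the + strand.

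Calr4: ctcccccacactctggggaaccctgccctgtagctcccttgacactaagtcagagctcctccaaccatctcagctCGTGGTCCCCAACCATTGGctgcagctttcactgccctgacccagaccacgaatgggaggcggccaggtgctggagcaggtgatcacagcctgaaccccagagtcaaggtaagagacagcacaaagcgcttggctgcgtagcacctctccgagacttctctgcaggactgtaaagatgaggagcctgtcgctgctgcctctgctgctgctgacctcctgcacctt

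Calr: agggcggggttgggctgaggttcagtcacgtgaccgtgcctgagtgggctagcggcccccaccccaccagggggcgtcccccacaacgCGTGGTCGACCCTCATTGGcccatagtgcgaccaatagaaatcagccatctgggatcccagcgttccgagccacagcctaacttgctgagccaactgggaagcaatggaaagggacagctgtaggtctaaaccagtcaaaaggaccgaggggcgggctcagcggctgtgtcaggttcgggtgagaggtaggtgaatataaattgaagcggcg

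Hspa5: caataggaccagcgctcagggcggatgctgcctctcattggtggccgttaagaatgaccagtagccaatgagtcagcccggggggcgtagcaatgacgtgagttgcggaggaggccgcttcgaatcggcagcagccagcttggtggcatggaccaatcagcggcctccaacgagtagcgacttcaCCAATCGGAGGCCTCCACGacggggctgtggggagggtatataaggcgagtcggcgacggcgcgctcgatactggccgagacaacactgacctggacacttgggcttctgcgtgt

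In Calr4 and in Calr the element lies on the opposite strand of the gene, and its first base in the direction of the gene is at -175 and -162 from the start site. In Hspa5 it lies on the strand of the gene, with its first base at -65. Promoters were listed for 31 of the 35 members, and 10 of these (32.3%) held an exact match, against 39 of 32851 promoters (0.119%) and 37 of 27025 genes (0.137%) in the table. The 10 were Calr, Calr4, Canx, Hspa5, Hsp90b1, Dnajc3, Pdia6, Creld2, Syvn1 and Derl3. Calr4 had a positive change and the other 9 a negative one, against a negative share of 57.5% over all genes. With up to 1 mismatch in CCACG, 15 members (48.4%) held it, against 0.998% of all promoters and 1.14% of genes. The XBP1 core ACGTG was found in 12 members (38.7%), against 19.6% of all promoters and 21.8% of genes, and it can overlap the other elements. In Calr4 it lay at another start site than the one shown. Members were counted over all their listed start sites, so the shares of genes are the like comparison. A match of letters is a description and not a bound site. The members are known stress genes, so their share is no independent result.

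Hspa5 (BiP) is the main Hsp70 of the ER and also keeps the sensors inactive, and Hsp90b1 is its Hsp90 counterpart. Hspa5 measured 12.31, 12.39, 12.33, 12.06 and 12.23 in HCC, against 12.14, 12.54, 12.52 and 12.49 in control liver (change -0.16, 95% interval -0.40 to 0.08, adjusted p = 0.411). Hsp90b1 measured 13.20, 13.41, 13.33, 13.17 and 13.30 in HCC, against 13.40, 13.55, 13.42 and 13.40 in control liver (change -0.16, 95% interval -0.32 to 0.01, adjusted p = 0.261). On measured intensities, both 95% intervals exclude a change of 1 log2 unit in either direction. The mean levels of Hspa5 and Hsp90b1 lay at percentiles 99.0 and 99.9 of all genes, and saturation of the signal was not tested. Control array 1 was the lowest control for Hspa5 and lay within the HCC range.

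The partners of these chaperones had negative changes apart from Dnajb9. Hyou1, a nucleotide exchange factor for BiP, measured 8.73, 8.26, 9.03, 7.94 and 9.04 in HCC, against 8.20, 10.17, 10.10 and 9.81 in control liver (change -0.97, SE 0.42, adjusted p = 0.236). Control array 1 lay within the HCC range and the other 3 controls above it. Without control array 1 the change of Hyou1 was -1.43 (adjusted p = 0.127). Dnajc3, a co-chaperone that also inhibits PERK, measured 11.91, 12.28, 12.20, 11.87 and 12.30 in HCC, against 12.33, 12.57, 12.50 and 12.47 in control liver (change -0.35, SE 0.11, adjusted p = 0.142). Every HCC array was below every control array, with HCC array 5 close to control array 1. The mean of Dnajb11, which hands substrates to BiP, was 10.50 ± 0.56 in HCC and 11.04 ± 0.36 in control liver, and that of its partner Sdf2l1 was 8.96 ± 0.37 in HCC and 9.44 ± 0.42 in control liver. Dnajb9, another BiP co-chaperone, averaged 9.73 ± 0.37 in HCC and 9.50 ± 0.09 in control liver (change 0.23, adjusted p = 0.486).

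Protein disulfide isomerases form and rearrange disulfide bonds, and all 5 measured here had a negative change. P4hb, which is also a subunit of collagen prolyl hydroxylase and of the microsomal triglyceride transfer protein, measured 11.22, 11.37, 11.65, 11.11 and 11.65 in HCC, against 11.77, 12.04, 11.99 and 11.91 in control liver. All tumours were below all controls, and the change was -0.53 (SE 0.13, 95% interval -0.82 to -0.24, adjusted p = 0.0850). Pdia5 had a change of -0.65 with a wide spread in HCC (9.28 ± 0.79 in HCC and 9.93 ± 0.40 in control liver, adjusted p = 0.364). Pdia3, the isomerase that works with calreticulin and calnexin, averaged 12.19 ± 0.26 in HCC and 12.25 ± 0.21 in control liver (change -0.06, adjusted p = 0.858). Pdia4 and Pdia6 had changes of -0.27 and -0.29 (adjusted p = 0.383 and 0.568). Without HCC array 4 the change of Pdia6 was -0.06 (adjusted p = 0.844), and without control array 1 it was -0.45. For Pdia4 it was -0.43 without control array 1 and -0.18 without control array 2. A second probe set of Pdia4 gave -0.16.

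Creld2 and Manf are small proteins that are made and partly secreted under ER stress. Creld2 measured 9.21, 9.36, 9.72, 8.69 and 9.29 in HCC, against 8.34, 10.27, 9.94 and 9.99 in control liver (change -0.38, adjusted p = 0.593). Manf measured 10.03, 9.90, 10.31, 9.77 and 10.15 in HCC, against 9.62, 10.51, 10.61 and 10.54 in control liver (change -0.29, adjusted p = 0.453). For both genes every tumour lay between control array 1 and the other 3 controls. Without control array 1 the changes were -0.81 for Creld2 and -0.52 for Manf (adjusted p = 0.172 and 0.155). That of Creld2 was -0.17 without control array 2 and -0.24 without HCC array 4.

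ER-associated degradation had the lowest median change of the roles, -0.50, and a negative change in 6 of 6 genes, against 57.5% of all genes. Of the 6, 4 were lower at an unadjusted p below 0.05, against 9.85% of all genes. Herpud1, a stress-induced membrane protein that organises the HRD1 ubiquitin ligase, measured 9.91, 10.53, 10.70, 11.07 and 11.35 in HCC, against 11.92, 11.66, 11.80 and 11.61 in control liver. The change was -1.04 (SE 0.25, 95% interval -1.61 to -0.47, adjusted p = 0.0854), and HCC array 5 came closest to the controls. Edem1, which delivers misfolded glycoproteins for degradation, measured 8.98, 9.58, 9.57, 9.47 and 10.17 in HCC, against 10.53, 10.63, 10.62 and 10.34 in control liver. The change was -0.98 (SE 0.20, 95% interval -1.43 to -0.53, adjusted p = 0.0571), again with HCC array 5 nearest to the controls. Mean levels in HCC were thus 0.487-fold of control liver for Herpud1 and 0.508-fold for Edem1, with no overlap of the groups for either gene.

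Syvn1, the HRD1 ligase itself, measured 8.30, 8.57, 8.43, 8.30 and 8.66 in HCC, against 8.66, 8.81, 9.02 and 8.81 in control liver (change -0.37, SE 0.11, adjusted p = 0.113). Derl3, a derlin of the export channel, measured 6.75, 6.79, 7.38, 6.62 and 7.33 in HCC, against 7.08, 8.07, 7.35 and 7.91 in control liver (change -0.63, SE 0.24, adjusted p = 0.199). Groups overlapped for both genes, for Syvn1 at 1 pair of arrays. Sel1l, the partner of HRD1, had a change of -0.27 (adjusted p = 0.465), and Derl1 one of -0.03 (adjusted p = 0.925). Without HCC array 5, Edem1, Herpud1, P4hb and Syvn1 passed the threshold, with changes of -1.13, -1.20, -0.59 and -0.43 (adjusted p = 0.00742, 0.0239, 0.0365 and 0.0495). In that fit 556 of 19938 genes were lower past the threshold, against 32 with all arrays.

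The Herpud1 window, chr8:94386179-94386478 on the + strand, is shown because this gene had the lowest change of the members and holds a variant of the stress element, ATTGG and CCACG with 1 base between them, in capitals.

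Herpud1: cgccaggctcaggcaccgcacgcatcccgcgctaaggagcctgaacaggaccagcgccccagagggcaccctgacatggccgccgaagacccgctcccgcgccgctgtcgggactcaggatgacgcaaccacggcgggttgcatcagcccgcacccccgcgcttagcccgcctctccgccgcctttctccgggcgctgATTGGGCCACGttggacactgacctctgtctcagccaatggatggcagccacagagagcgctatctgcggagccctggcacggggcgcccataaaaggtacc

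This variant begins at -52 from the start site. Among the members it was found in Herpud1 and Dnajb11 (6.45% of 31), against 0.0365% of all promoters and 0.0444% of genes. The window of Edem1, on chromosome 6, held none of the elements searched, which says only that these letters are not in this window.

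**Figure D3:**
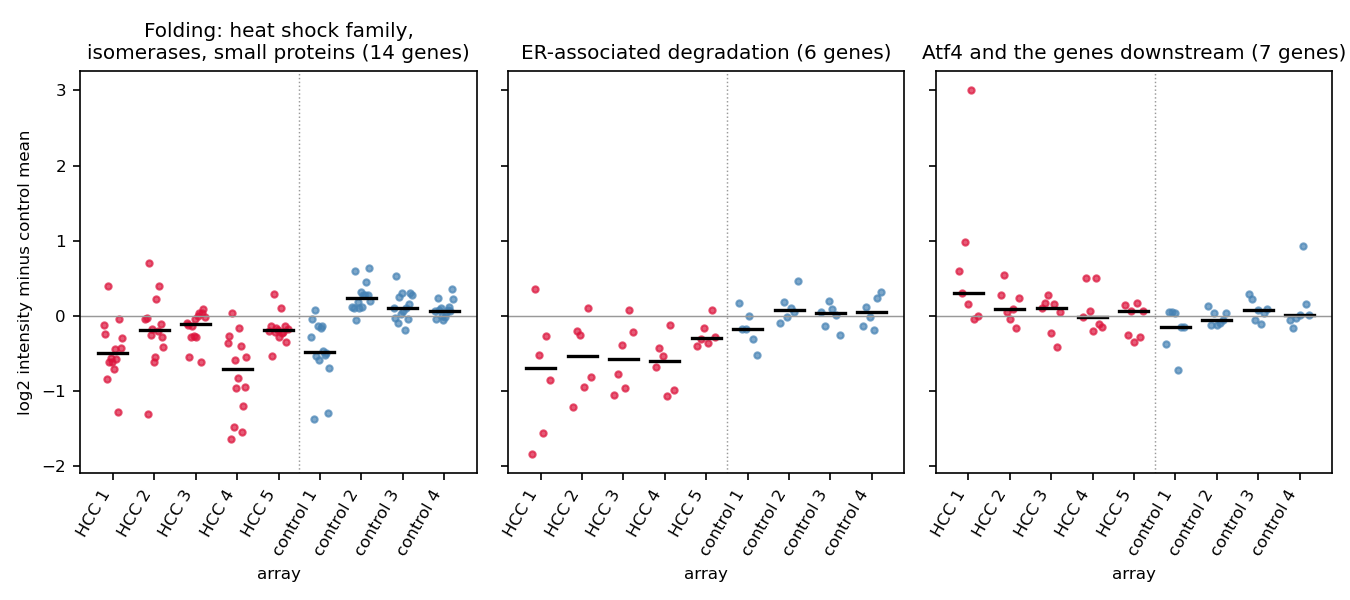
Log2 intensity minus the control mean (y axis) on the 9 arrays, with 1 point per gene and a black bar at the median, for 14 folding genes, 6 genes of ER-associated degradation, and Atf4 with 6 genes downstream of it. The folding genes have their lowest medians on HCC arrays 4 and 1 and on control array 1, the degradation genes are below 0 at the median on all 5 HCC arrays, and HCC array 1 has the highest median of the last panel.

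Among the sensors, Eif2ak3 (PERK) measured 8.45, 7.93, 8.64, 7.97 and 7.79 in HCC, against 7.08, 7.39, 7.30 and 7.27 in control liver. All tumours were above all controls, and the mean was 8.16 ± 0.37 in HCC and 7.26 ± 0.13 in control liver. The change of 0.90 (1.86-fold, SE 0.18, 95% interval 0.50 to 1.30) missed the threshold over all genes (adjusted p = 0.0530). It passed without HCC array 5 (0.99, adjusted p = 0.0194), where 631 of all genes were higher, against 171 with all arrays. It passed also where only genes above the median level were tested (adjusted p = 0.0358) and with array weights (0.95, adjusted p = 0.0235). These 3 were the only ones of 17 alternatives in which Eif2ak3 passed, with an adjusted p of up to 0.157 in the others.

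The other sensors and the factors they act through showed no change past the threshold. Ern1 (IRE1) measured 8.29, 7.96, 8.18, 7.91 and 8.37 in HCC, against 8.16, 8.20, 7.80 and 7.97 in control liver (change 0.11, 95% interval -0.17 to 0.39, adjusted p = 0.648). Atf6 measured 9.51, 10.35, 9.82, 9.93 and 9.79 in HCC, against 9.88, 10.04, 10.01 and 10.03 in control liver (change -0.11, 95% interval -0.45 to 0.22, adjusted p = 0.690). The spread of Atf6 was wider in HCC (SD 0.31) than in control liver (SD 0.07), with HCC arrays 1, 3 and 5 below and HCC array 2 above all controls. Xbp1 measured 9.02, 9.02, 9.38, 9.06 and 9.13 in HCC, against 8.44, 8.78, 8.93 and 9.34 in control liver (change 0.25, 95% interval -0.12 to 0.62, adjusted p = 0.417). Atf4 measured 9.53, 9.21, 9.05, 8.92 and 9.09 in HCC, against 8.57, 9.07, 9.22 and 8.88 in control liver (change 0.22, 95% interval -0.13 to 0.58, adjusted p = 0.447). Xbp1 and Atf4 were both lowest on control array 1 among the controls, and without it the changes were 0.10 for Xbp1 and 0.10 for Atf4 (adjusted p = 0.744 and 0.766). Without HCC array 1 the change of Atf4 was 0.13, and without control array 4 that of Xbp1 was 0.40.

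Ddit3 encodes CHOP, the factor tied to cell death under lasting ER stress. It measured 9.55, 8.62, 8.84, 8.64 and 8.64 in HCC, against 8.62, 8.61, 8.51 and 8.54 in control liver (change 0.29, SE 0.18, adjusted p = 0.400). Every HCC array was above the highest control, but HCC array 2 was nearly level with control array 1 (8.620 against 8.615). HCC array 1 stood well above the other tumours, and without it the change was 0.12 (adjusted p = 0.463). Asns, the asparagine synthetase and a classical ATF4 target, measured 9.23, 6.31, 6.38, 6.73 and 6.38 in HCC, against 5.49, 6.12, 6.11 and 7.15 in control liver (change 0.79, SE 0.61, adjusted p = 0.493). HCC array 1 alone exceeded all controls, and without it the change was 0.23 (adjusted p = 0.725). The remaining effectors had small changes: Atf3, an immediate stress factor, had a change of 0.25, Sesn2, an inhibitor of mTORC1, 0.04, the pseudokinase Trib3 -0.13, and Chac1, which breaks down glutathione, -0.20, with adjusted p between 0.281 and 0.809.

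The Asns window, chr6:7693160-7693459 on the - strand, is shown for the C/EBP-ATF element through which ATF4 is known to act, searched on both strands as TGATG, 1 base and AA and given in capitals.

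Asns: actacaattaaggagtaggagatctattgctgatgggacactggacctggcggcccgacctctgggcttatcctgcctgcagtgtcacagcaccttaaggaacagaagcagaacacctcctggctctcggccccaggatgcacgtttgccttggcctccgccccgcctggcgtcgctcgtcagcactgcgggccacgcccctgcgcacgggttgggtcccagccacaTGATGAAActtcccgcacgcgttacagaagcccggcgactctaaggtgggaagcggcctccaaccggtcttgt

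This element begins at -23 from the start site. Herpud1, Atf3, Trib3, Asns and Chac1 held it (16.1% of 31 members), against 3.97% of all promoters and 4.51% of genes. Of these 5 genes, Asns and Atf3 had a positive change and the other 3 a negative one.

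The folding genes tended to be low on the same arrays of a group. Of the 14 heat shock family, isomerase and small secretory genes, 11 were lowest among the tumours on HCC array 4 and 11 were lowest among the controls on control array 1, against 23.3% and 34.2% of all genes for the same arrays. The median distance of these 14 genes from the control mean was -0.71 on HCC array 4 and -0.48 on control array 1, against 0.24, 0.10 and 0.07 on the remaining controls. On HCC arrays 1, 2, 3 and 5 it was -0.50, -0.19, -0.10 and -0.19. The median on control array 1 thus lay within the range of the tumours. The 6 degradation genes had medians of -0.69, -0.54, -0.58, -0.61 and -0.29 on HCC arrays 1 to 5, against -0.17, 0.08, 0.04 and 0.05 in the controls, with every tumour below every control. The median over all 19938 genes was also lower in every tumour than in every control, by far less, at -0.05 to -0.02 in HCC and -0.01 to 0.02 in control liver. Atf4 and the 6 genes downstream were highest among the tumours on HCC array 1 in 5 of 7 cases, against 24.5% of all genes.

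Genes that are not members were read on the same arrays. Of 38 other ER folding and redox enzymes 32 (84.2%), and of 37 translocon and early secretory genes 31 (83.8%), were lowest among the controls on control array 1, against 34.2% of all genes. On HCC array 4, 13 of the 38 (34.2%) and 14 of the 37 (37.8%) were lowest among the tumours, against 23.3% of all genes and 78.6% of the folding members. Of 39 other targets of ATF4 and CHOP, 20 (51.3%) were highest among the tumours on HCC array 1, against 24.5% of all genes. So were 17 of the 38 ER folding and redox enzymes (44.7%) and 3 of the 37 translocon and early secretory genes (8.11%). Xist, a transcript of female cells, was 11.14 and 11.13 on HCC arrays 1 and 2 and 4.92 to 5.10 on HCC arrays 3 to 5, against 4.83 on control array 4 and 10.68 to 11.76 in the other control livers. With the Xist level as a covariate Calr4 kept its change (3.30, adjusted p = 0.0375). Why these arrays were low was not tested.

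**Figure D4:**
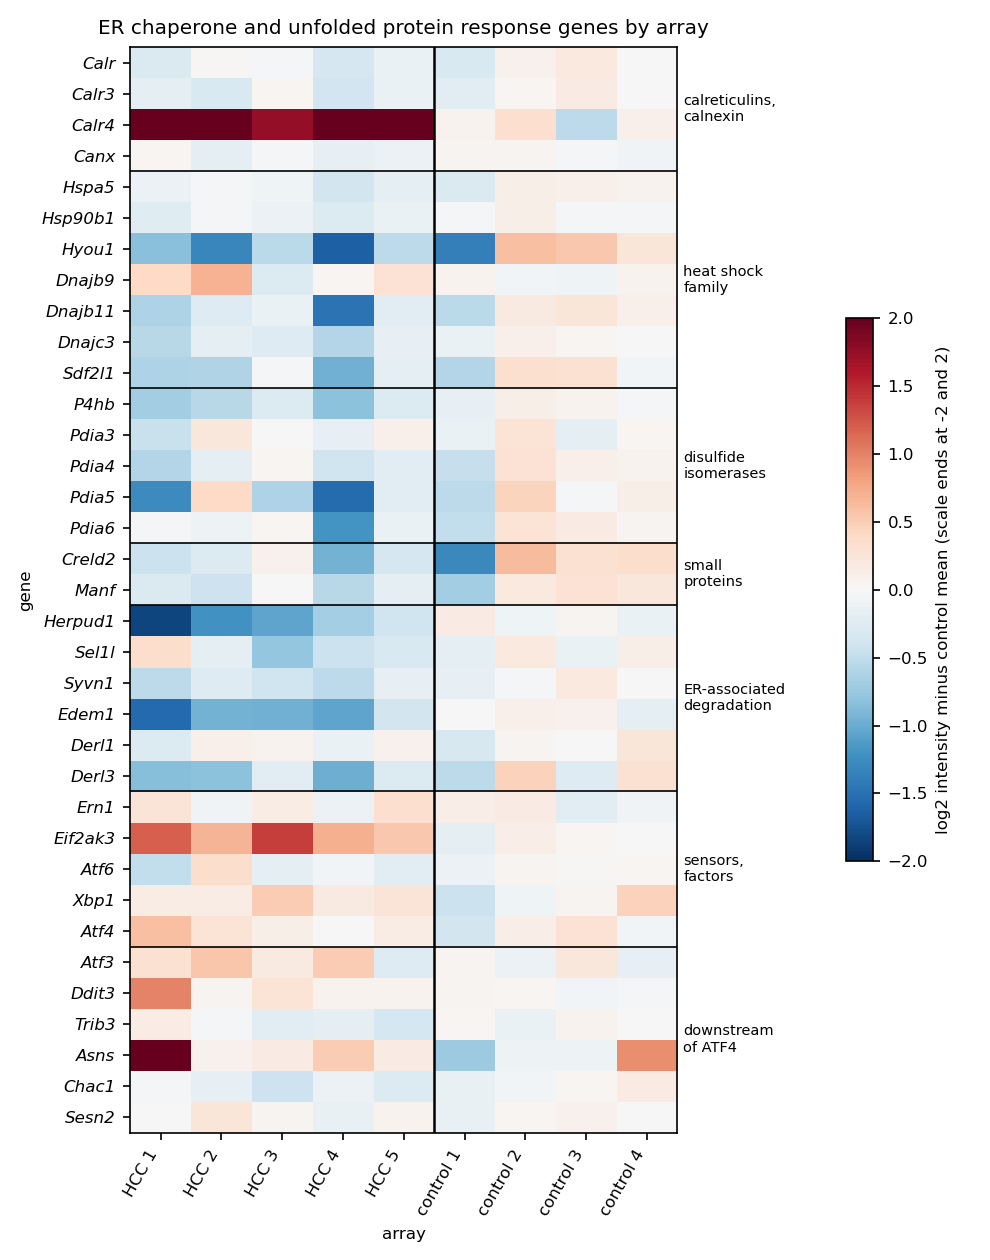
Log2 intensity minus the control mean for the 35 genes (rows, by role) on the 5 HCC arrays (left) and 4 control arrays (right). The colour scale ends at -2 and 2, which the values of Calr4 on HCC arrays 1, 2, 4 and 5 and of Asns on HCC array 1 exceed.

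Beyond the members, 182 other genes of 6 lists of the same pathway were measured, of which 1 rose and 1 fell, with a median change of -0.002. At an unadjusted p below 0.05, 26 were higher and 19 lower (14.3% and 10.4%), against 10.5% and 9.85% of all genes. By list, those higher and lower were 8 and 2 of 38 folding and redox enzymes, 1 and 6 of 26 degradation genes, 3 and 5 of 37 translocon and secretory genes, 8 and 2 of 23 sensors and transducers, 6 and 2 of 39 ATF4 and CHOP targets, and 0 and 2 of 20 chaperones outside the ER. Of 38 other ER folding and redox enzymes, Ppic, a cyclophilin of the secretory pathway, rose and none fell (median change 0.02). Ppic measured 9.89, 9.86, 9.38, 9.69 and 9.12 in HCC, against 8.29, 8.82, 8.50 and 8.49 in control liver (2.09-fold, change 1.06, SE 0.18, adjusted p = 0.0382). Of 37 translocon and early secretory genes, Lman1, a cargo receptor that carries glycoproteins from the ER to the Golgi, fell and none rose (median change -0.06). Lman1 measured 11.17, 11.49, 11.43, 11.38 and 11.72 in HCC, against 11.88, 12.10, 12.06 and 12.03 in control liver (0.669-fold, change -0.58, SE 0.11, adjusted p = 0.0493). Both calls ended when control array 1, 2, 3 or 4 or HCC array 1, 2, 3 or 4 was left out (adjusted p = 0.0574 to 0.138 for Ppic and 0.0608 to 0.143 for Lman1), and that of Lman1 also after subtraction of array medians (adjusted p = 0.0516) and with trend and robust estimation (0.0519).

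None of the genes of the other 4 lists passed. Among 26 other genes of ER-associated degradation, with a median of -0.06, the smallest p belonged to Fam8a1, a part of the HRD1 complex (-0.34, adjusted p = 0.10), and to Nploc4, a cofactor of the ATPase that pulls proteins from the ER (-0.40, adjusted p = 0.104). Among 23 other sensors and signal transducers, with a median of 0.10, the first were Nfyb, a subunit of the CCAAT-binding factor NF-Y (-0.40, adjusted p = 0.0702), and Eif2ak4, the amino acid sensor GCN2 (0.24, adjusted p = 0.156). Among 39 other ATF4 and CHOP targets, with a median of 0.05, they were Cth, an enzyme of cysteine synthesis (-1.36, adjusted p = 0.0531), and Gars, the glycyl-tRNA synthetase (0.44, adjusted p = 0.0961). Among 20 cytosolic and mitochondrial chaperones, with a median of -0.09, they were the small heat shock protein Hspb8 (-0.30, adjusted p = 0.196) and the mitochondrial chaperone Trap1 (-0.61, adjusted p = 0.242).

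Markers of cell types were read beside these values. The lowest intensity of any probe set was 3.91, so no marker could be at 0. Low markers were not shown to lie above background, and they add to the sums below. Klrb1c and Cd79a, for example, had mean levels at percentiles 5.8 and 8.2 of all genes. Alb, the main hepatocyte product, averaged 13.30 ± 0.23 in HCC and 13.55 ± 0.08 in control liver. All 5 hepatocyte markers had negative changes, from -0.07 for Apoa1 to -1.24 for Tdo2 (adjusted p = 0.165 in limma). Tat had a change of -0.88 with all tumours below all controls (adjusted p = 0.111). The summed linear intensity of 5 hepatocyte markers was 34730 to 52310 in HCC and 51310 to 54550 in control liver. Of 5 cholangiocyte markers 1 rose (Sox9, 9.50 ± 0.65 in HCC and 7.35 ± 0.14 in control liver, adjusted p = 0.0228), and their sum was 905 to 3557 in HCC and 444 to 482 in control liver. The top of that range was on HCC array 1, where Cftr was 10.85, against 5.57 to 6.82 on the other tumours. The groups overlapped for Krt7 and Krt19. Of 4 proliferation markers 1 rose (Top2a, 8.70 ± 1.07 in HCC and 5.91 ± 0.10 in control liver, adjusted p = 0.0409), with sums of 566 to 2580 in HCC and 266 to 330 in control liver. None of the other 7 lists had a member past the threshold. Sums overlapped for 8 plasma and B cell markers, at 1215 to 2008 in HCC and 1429 to 1930 in control liver. Sdc1 had the highest mean of these 8 in both groups. Jchain was 6.03 on HCC array 1, against 8.39 to 9.12 on the other tumours. On control array 1 Jchain was 6.62, against 8.59 to 8.61 on the other controls. Tnfrsf17 was instead highest among the controls on control array 1 (6.12). For 5 pancreatic acinar markers sums also overlapped, at 480.0 to 659 in HCC and 521 to 648 in control liver. Sums were 1237 to 8533 in HCC and 2669 to 6150 in control liver for 6 Kupffer cell and macrophage markers, 348 to 10680 in HCC and 311 to 1239 in control liver for 4 neutrophil markers, and 1263 to 2420 in HCC and 2335 to 2746 in control liver for 5 endothelial markers. Of the last, Clec4g (-1.58), Stab2 (-0.85) and Kdr (-0.64) had negative changes, and Pecam1 (0.16) and Cdh5 (0.10) positive ones. They were 764 to 1144 in HCC and 1078 to 1303 in control liver for 6 stellate cell and fibroblast markers, of which Lrat (-1.19) and Des (-0.28) had negative changes and Col1a1, Col1a2, Col3a1 and Pdgfrb positive ones (0.09 to 0.21). Sums of 7 T and NK cell markers were 426 to 553 in HCC and 495 to 560 in control liver. The part of cell composition in the changes above was not tested.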

How the data were processed

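The deposited values are RMA probe set intensities on a linear scale, per the submitters' processing notes, 1 column per array. RMA corrects background, normalises quantiles between arrays and summarises probes by median polish, and the authors used GenePattern and R, per the labels of the series. Values of 3.91 to 21468 show a linear scale, and log2 was taken with no pseudocount. Of 35512 probe sets, those with 1 gene symbol in the platform annotation (21789) were kept, and of several for a gene the one with the highest mean, which gave 19938 genes. All 35 members matched by symbol, on 37 probe sets; those of Dnajc3 held equal values.

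The 5 HCC arrays were set against the 4 control arrays in limma 3.58.1 in R 4.3.3 (lmFit and eBayes, group as the only term, two-sided, Benjamini-Hochberg over all 19938 genes, threshold 0.05), which was tested on simulated data. Differences between paralogs were tested by exact permutation, whose smallest possible p is 0.00794. Plots and tables used Python 3.11.15, pandas 2.3.3, numpy 2.4.6 and matplotlib 3.10.9. The members, lists and tests were chosen with earlier results of these data known. All values per array are given for members past the threshold, with an unadjusted p below 0.05 or without overlap, and for the calreticulins, Canx, Hspa5, Hsp90b1, the sensors, Xbp1, Atf4 and Ddit3; Asns, Creld2 and Manf were added after their values were seen. Of each other list, the genes past the threshold are named, or else the 2 with the smallest p. The genome build of the array annotation is not given in the sources used here. A search for the variant stress element was also added after seeing the data. Protein sequences were not analysed here, and genes of the lists without a probe set of 1 symbol were not used.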

Additional observations from a re-analysis of the deposited data

Results flagged for a closer look

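Single arrays stood far from the others of their group for 6 of 70 combinations of 35 genes and 2 groups, by the gap to the nearest array as a share of the group's range; chance alone marks about 1 in 20 groups, and the genes are not independent of each other. On HCC array 1, Asns was at 9.23, against 6.31 to 6.73 on the other tumours, and Ddit3 at 9.55, against 8.62 to 8.84. On HCC array 4, Pdia6 was at 10.32, against 11.38 to 11.56 on the other tumours. On control array 1, Hspa5 was at 12.14, against 12.49 to 12.54 on the other controls, and Manf at 9.62, against 10.51 to 10.61. On control array 2, Hsp90b1 was at 13.55, against 13.40 to 13.42 on the other controls, a difference of small size.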

How the results depend on the processing

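Over 17 alternatives, 586 of 592 values of the members kept their direction, and 32 of 35 members kept it throughout. Part of this agreement was fixed in advance. Testing only genes above the median level, or using trend and robust estimation, leaves the changes themselves unaltered. Averaging probe sets leaves them unaltered for members with 1 probe set, and subtracting array medians shifts all genes equally. Reversals were of changes near 0 and arose when single arrays were left out, with ranges of -0.125 to 0.0400 for Pdia3, -0.131 to 0.0549 for Derl1, -0.0046 to 0.0917 for Sesn2 and -0.0721 to 0.0369 for the change of Calr3 minus that of Calr, which was -0.172 after quantile normalisation. Calr4 ranged from 2.94 to 3.60 and passed in 12 of the 16 settings in which it was tested; it was not tested among genes above the median level. Members higher numbered 0 to 2 with arrays left out in turn and 2 with array weights, against 1. Members lower, 0 in limma (7 at an unadjusted p below 0.05), numbered 0 to 4 with arrays left out, 3 with array weights (Edem1, Herpud1 and P4hb), 1 among genes above the median level and 1 with the replicate block (Edem1, -1.13, adjusted p = 0.0337). Only HCC array 5 carries replicate number 5, so the block fit takes no change from it. Its changes are those of the fit without HCC array 5 and are no separate result. Over all genes, 171 were higher and 32 lower; with arrays left out these were 10 to 631 and 0 to 556, with array weights 503 and 246, among genes above the median level 285 and 93, and with the replicate block 259 and 220. After repeated quantile normalisation 57 were lower. Calls over all genes were fewer when any single control array or HCC array 1, 2, 3 or 4 was left out. They were more without HCC array 5, and the cause was not tested. Equal replicate numbers were not treated as pairs in the main limma fit. Deviations from the group means correlated between -0.08 and 0.32 over the 4 equal-numbered pairs, against -0.17 to 0.21 over pairs of unequal number. The highest value, 0.32, belonged to HCC array 2 and control array 2. The number of arrays limits the precision, and without detection calls low intensities cannot be told from background.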

Other observations

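Some further genes of the pathway had larger changes than most members without passing the threshold in limma, and were picked after their values were seen. Nupr1, a small stress protein of the nucleus, measured 11.17, 8.42, 10.95, 8.88 and 9.02 in HCC, against 7.90, 7.65, 7.56 and 7.83 in control liver (change 1.96, adjusted p = 0.119). All tumours exceeded all control livers, with HCC arrays 1 and 3 far above the other tumours. Dnajc10, an ER reductase that takes part in degradation, had a change of 1.28 (adjusted p = 0.0683), and Casp12, a caspase linked to ER stress in the mouse, one of 1.59 (adjusted p = 0.205). The groups overlapped for Casp12. It was 9.40 on HCC array 2 and 5.93 to 7.61 on the other tumours, against 5.18 to 6.04 in control liver. Sec24d, a coat protein of vesicles that leave the ER, had a change of -0.75 (adjusted p = 0.0871). Creb3l3, a liver transcription factor that is cleaved like ATF6, had a change of -0.72 (adjusted p = 0.168).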
